A study of Rattus norvegicus with 4 samples.

Results

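The microRNAs (miRNAs) rno-miR-192-5p, rno-miR-194-5p, rno-miR-215 and rno-miR-193-3p, known from liver and gut, were followed in RNA of exosomes, membrane vesicles shed by cells, isolated from rat serum. They were taken by exact name and are 4 of the 719 rat miRNAs with probes on the array. The samples were 1 array (1-colour, Cy3, Agilent) for each of 4 groups of male rats. Severe and moderate disease were both sampled at day 49 and light disease at day 35, after injection of a hepatocellular carcinoma (HCC) cell line that the labels do not name. Naive rats, sampled at day 0, had no injection. The design text speaks instead of a dose of HCC exosomes, and spells the strain "baffolo". It mentions 4 independent experiments with different rats, but each group here is a single array, and pooling of RNA is not stated. No p-value can be given. Errors written with ± are standard errors over the spots of an array, so they hold spot noise and no spread between rats. Disease and day cannot be told apart in any comparison with naive, nor disease grade and day where severe or moderate is set against light. Severe and moderate share their day.

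A miRNA selects its messenger RNA targets mainly through its seed, bases 2 to 8 from the 5′ end. miR-192 and miR-215 share a seed and form a family that is abundant in liver, gut epithelium and kidney, and in human cells the tumour suppressor p53 induces both, which slows the cell cycle. miR-194 is made from the same primary transcripts, because 1 of its gene copies lies beside the miR-192 gene and the other beside the miR-215 gene. miR-193 has a seed of its own, lies beside miR-365 in the genome, and lowers the level of several growth and survival proteins in human cancer cells.

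The mature sequences show which members share a seed and how far they differ elsewhere. Whether the probes tell similar miRNAs apart was not tested. They come from RefSeq (GRCr8), with the seed in capitals. The array's miR-193-3p was matched through its gene, Mir193, whose mature form RefSeq calls miR-193a-3p.
miR-192-5p: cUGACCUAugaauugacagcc
miR-215: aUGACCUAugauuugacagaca
miR-194-5p: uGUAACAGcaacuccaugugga
miR-193-3p: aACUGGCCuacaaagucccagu
miR-193b-3p: aACUGGCCcacaaaguccc
miR-365-3p: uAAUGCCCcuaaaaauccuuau
miR-192-5p and miR-215 are identical at 18 of 21 positions. They differ by C1A, A12U and C20A, counted from 1 at the 5′ end, with the base of miR-192-5p first. Mir194-2 neighbours Mir192 and Mir194-1 neighbours Mir215, and both copies give the same mature miR-194-5p, so the array cannot say which locus a signal would come from. miR-193b-3p, which shares the seed of miR-193-3p and differs from it by U9C over 19 positions, has no probe under that name on the array. Among the 642 array miRNAs with a sequence in RefSeq, the miR-192-5p seed occurred in miR-215 only, and the seeds of miR-194-5p and miR-193-3p occurred in no other.

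Each member had 2 probes of up to 10 spots. For each miRNA the mean spot signals of its probes, background already subtracted, were added up. The sum was then scaled by the 75th percentile of the 111 miRNAs that all 4 arrays detected, which was 666 units for naive, 356 for light, 954 for moderate and 415 for severe. A miRNA is called measured if the scanner software detected it and its sum was not under the floor. The floor is the dimmest probe for which a share of 0.5 or more of the spots stood well above background, at 15.6 (naive), 15.1 (light), 13.1 (moderate) and 16.0 units (severe). If only 1 array of a pair measured the miRNA, its difference is given as a bound, taken at the floor or at the dim signal itself if that is higher. Such a bound is not strict, since the floor is that of 1 probe and the value adds up 2. Differences of 2-fold or more (1 on the log2 scale) are called higher or lower.

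The severe array stood apart from the other 3. Its log2 signals correlated with theirs at 0.827 to 0.830 over 104 miRNAs, while those 3 correlated with each other at 0.970 to 0.974. Its labelling spike-ins read 0.788 (dmr_285) and 0.488 (dmr_31a) times those of naive. The choice among 7 scalings moved the median difference from naive of all miRNAs between −0.79 and 0 for severe, 0 and 0.91 for moderate, and −0.64 and 0.27 for light. Marker lists of other cell types moved too. The summed scaled level of lymphocyte miRNAs was 0.316 on the severe array and 1.37 on the naive array, with 2 of 3 at least 2-fold lower (18.2% of all miRNAs were), and that of muscle miRNAs 0.0948 (severe) and 1.88 (naive), with 2 of 4 lower. Myeloid miRNAs summed to 6.21 (severe) and 10.9 (naive), and platelet and endothelial miRNAs to 0.0546 (severe) and 0.128 (naive), with 0 past 2-fold in either list. Red-cell miRNAs summed to 34.8 (severe) and 42.0 (naive), with 2 of 3 higher (24.1% of all miRNAs were), and hepatocyte miRNAs to 1.04 (severe) and 1.73 (naive), with 0 of 2 past 2-fold. By its first probe alone, however, the hepatocyte miRNA miR-122-5p was 2.28-fold lower on the severe array than on the naive array. All 6 epithelial markers were undetected on every array. The part of these shifts in the results below was not tested.

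Severe disease against naive showed 2 of the 4 members higher, miR-192-5p and miR-193-3p, and 1 lower, miR-215. The fourth, miR-194-5p, was not detected on any array. Among the 137 miRNAs measured on at least 1 of these 2 arrays, 24.1% passed 2-fold upward and 18.2% downward, so moves of this size were common there. On the light and moderate arrays none of the members passed 2-fold from naive. In those comparisons 1.56% of miRNAs were higher and 0.781% lower (light), and 5.42% higher and 1.20% lower (moderate).

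**Figure D1:**
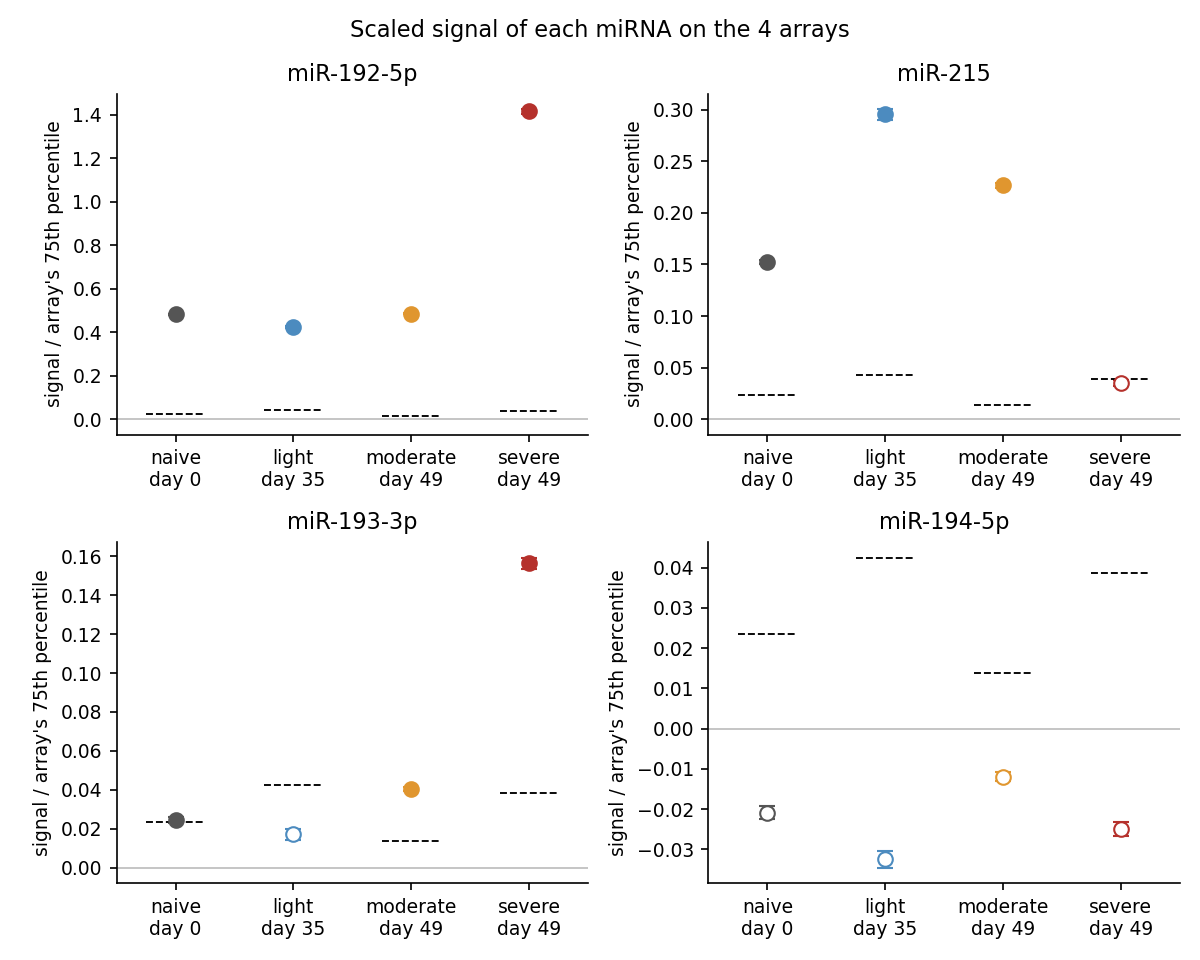
Scaled signal of the 4 miRNAs on the 4 arrays, as signal divided by the array's 75th percentile, with the standard error over spots (often smaller than the symbol). Filled symbols were measured, open symbols were not, and dashed lines mark each array's floor. miR-192-5p and miR-193-3p were highest on the severe array at 1.42 and 0.156, miR-215 was lowest and under the floor there, and miR-194-5p lay below 0 throughout.

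rno-miR-192-5p, the liver-rich member of the seed family, read 321 ± 2.39 (naive), 151 ± 2.01 (light), 463 ± 2.56 (moderate) and 588 ± 4.50 unscaled units (severe). Divided by each array's 75th percentile, these were 0.482 (naive), 0.424 (light), 0.486 (moderate) and 1.42 (severe). The naive and moderate levels differed by less than their spot error, the light level lay slightly below both, and the severe array stood apart. It was 2.94-fold higher than naive (log2 1.56 ± 0.02), place 18 from the top among the 109 miRNAs measured on both arrays. It was 2.92-fold higher than moderate (log2 1.54 ± 0.01) and 3.35-fold higher than light (log2 1.74 ± 0.02). The light and moderate arrays differed from naive by −0.19 ± 0.02 (light) and 0.01 ± 0.01 (moderate).

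Both probes of miR-192-5p gave the rise on the severe array. The light level lay below naive by the second probe (−0.25), while the scaled spots of the first overlapped with naive (−0.04). The spots of the first probe read 175 to 204 on the severe array and 90.9 to 103 on the naive array, and those of the second probe 380 to 411 (severe) and 214 to 233 (naive). After scaling, neither probe's spots on the severe array overlapped with those on any other array. The scaled rise over naive was 3.23-fold by the first probe and 2.82-fold by the second. Without scaling between arrays the difference from naive was 0.87 and that from moderate 0.34, both under 2-fold, and the light array then stood at −1.09 from naive. Relative to the median of all miRNAs the rise over naive was 1.67, and 1.85 with quantile normalization. The other scalings divide an array by 1 factor, which cancels here, so they could give no other value.

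**Figure D2:**
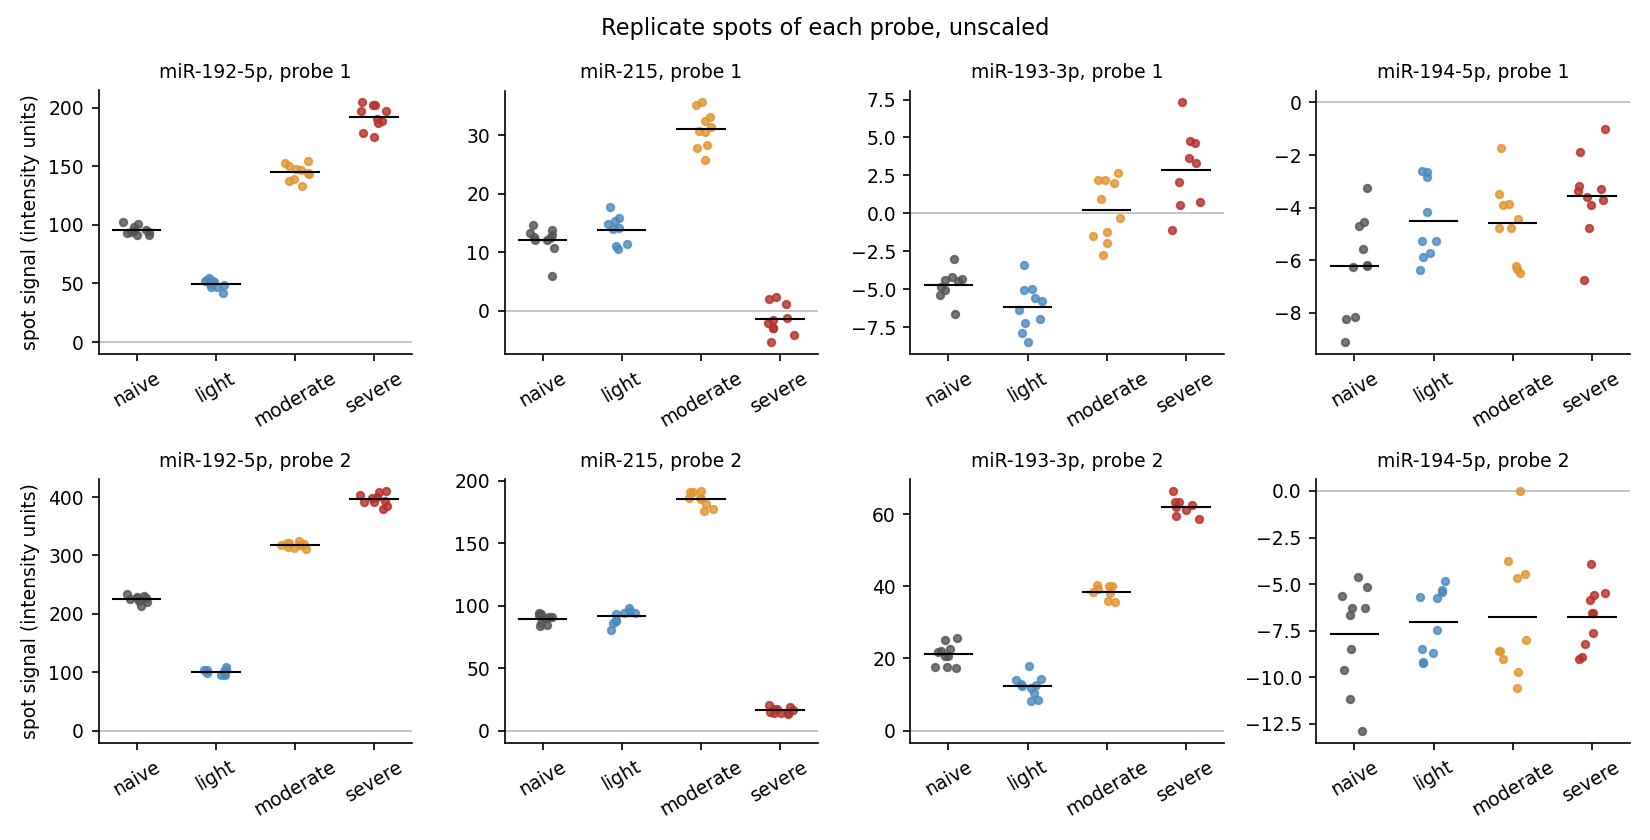
Unscaled signal of every spot used, in intensity units, for the 2 probes of each miRNA in naive, light, moderate and severe, with black bars at the mean. Both miR-192-5p probes were brightest on the severe array, miR-215 came mostly from its second probe and dropped to 13.2 to 20.5 there, and the first probe of miR-193-3p stayed within 10 units of 0.

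rno-miR-215, the gut-rich member of the seed family, went the other way. Its sum read 102 ± 1.48 (naive), 105 ± 1.88 (light), 216 ± 2.20 (moderate) and 14.6 ± 1.14 unscaled units (severe), or 0.152 (naive), 0.295 (light), 0.227 (moderate) and 0.0351 (severe) after scaling. The severe value lay under the floor of 16.0, so it counts as not measured although the scanner software detected it. Taken at the floor, the severe array was at least 3.96-fold lower than naive (log2 −1.98). It was at least 5.88-fold lower than moderate and at least 7.66-fold lower than light. These bounds are not strict, and the second probe alone gave smaller folds. On the light array miR-215 stood 1.94-fold above naive (log2 0.95 ± 0.03), just short of 2-fold and place 3 from the top of 117, and on the moderate array 1.49-fold above (log2 0.57 ± 0.03). From low to high the scaled order was severe, naive, moderate, light, and the steps between the last 3 exceeded spot error.

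Most of the miR-215 signal came from its second probe. That probe read 13.2 to 20.5 over 10 spots on the severe array, 5 of them well above background, against 83.9 to 94.3 over 9 spots on the naive array. By this probe alone the severe array was 3.46-fold lower than naive and 6.61-fold lower than light, and its difference from moderate was −2.32 on the log2 scale, with no overlap of scaled spots. The first probe averaged 12.1 (naive), 13.9 (light), 31.1 (moderate) and −1.51 (severe). It was dim throughout except on the moderate array: 0 of 10 (naive), 3 of 9 (light), 10 of 10 (moderate) and 0 of 10 spots (severe) were well above background. Relative to the median of all miRNAs the bound against naive was −1.87, and −1.80 with quantile normalization. The other scalings cannot change this value. With normexp background correction, which adds 50 units to each spot and so lowers folds, the difference from naive was −0.23 and from moderate −0.35. Without scaling the light difference was 0.05 and the moderate one 1.09.

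The seed partners changed unequally, a contrast that stays the same when an array is divided by 1 factor but not when the background step changes. Set against naive, the gap between miR-192-5p and miR-215 was at least 3.54 on the log2 scale on the severe array, or at least 11.6-fold in favour of miR-192-5p. It was 3.29 (9.76-fold) by the brightest probe of each alone and 1.36 (2.56-fold) with normexp. On the light array it ran the opposite way, at −1.14 ± 0.04, and on the moderate array it was −0.56 ± 0.03. Between the arrays of day 49, severe against moderate, it was at least 4.10, and 1.53 with normexp. The sign of each of these gaps was the same under all alternatives that gave a value, which were 14 for severe against naive and 15 for the others. Many of these, such as those that only divide an array by 1 factor, could not have changed a gap.

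**Figure D3:**
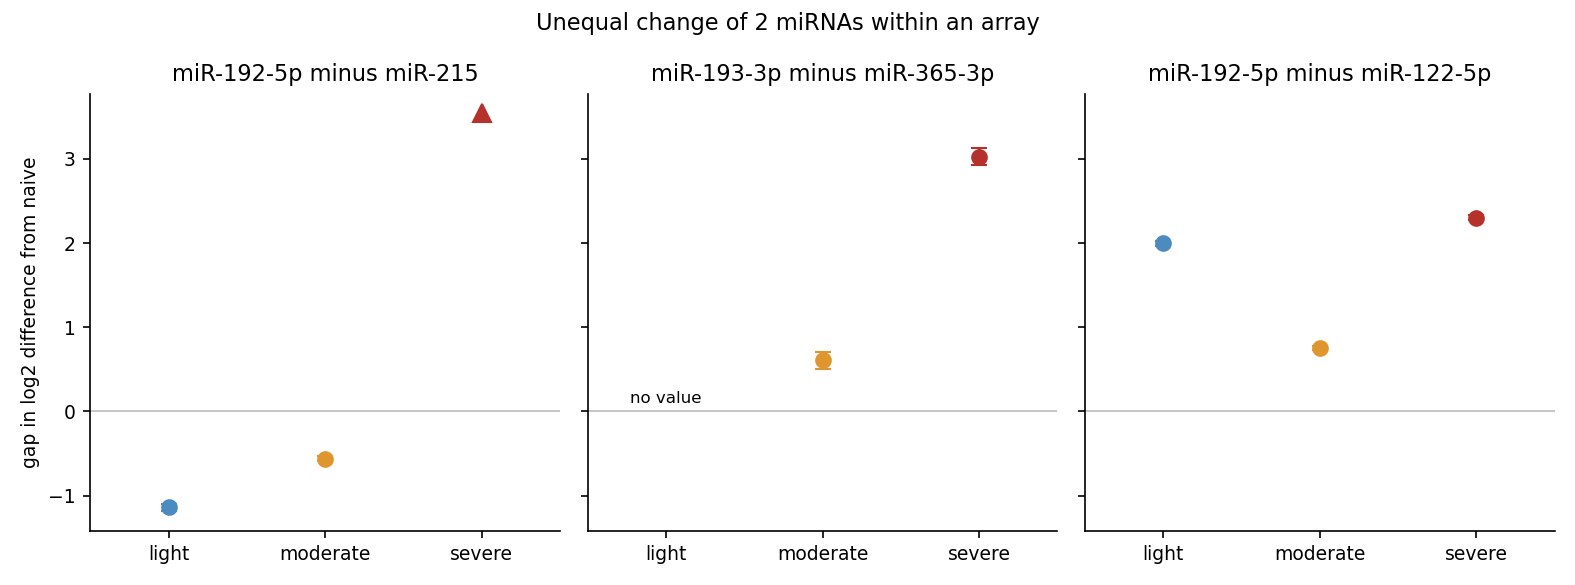
Gap between the log2 differences from naive of 2 miRNAs on the light, moderate and severe arrays, with the standard error over spots. The triangle is a lower bound, and a value above 0 means that the first miRNA changed upward relative to the second. On the severe array the gap was at least 3.54 for miR-192-5p over miR-215, 3.02 for miR-193-3p over miR-365-3p and 2.30 for miR-192-5p over miR-122-5p. The miR-193-3p gap rests on a naive sum just above the floor.

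rno-miR-193-3p, a miRNA that restrains growth in cancer cells, was near or under the floor on the naive and light arrays and highest on the severe one. Its sum read 16.4 ± 0.990 (naive), 6.13 ± 1.02 (light), 38.7 ± 0.920 (moderate) and 64.9 ± 1.23 unscaled units (severe), or 0.0246 (naive), 0.0172 (light), 0.0406 (moderate) and 0.156 (severe) after scaling. The light value was below the floor of 15.1, with 1 of 20 spots well above background, and the naive value was just above the floor of 15.6. The severe array was 6.35-fold higher than naive (log2 2.67 ± 0.09), place 5 from the top of 109. It was 3.85-fold higher than moderate (log2 1.95 ± 0.04) and at least 3.68-fold higher than light, a bound that is not strict. The moderate array stood 1.65-fold above naive (log2 0.72 ± 0.09), and between light and naive no bound above 1-fold could be given.

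The miR-193-3p signal rested on 1 of its 2 probes. The second probe read 58.5 to 66.4 over 8 spots on the severe array and 35.6 to 40.3 over 8 spots on the moderate array, against 17.3 to 25.6 over 10 spots on the naive array. By this probe alone the rise over naive was 4.72-fold on the severe array and 1.27-fold on the moderate array, where the scaled spots overlapped. Its bound for severe against light was 3.52-fold. The first probe averaged −4.70 (naive), −6.18 (light), 0.219 (moderate) and 2.88 (severe), with 0 spots well above background on each. The fold of the sum exceeds that of the second probe because the first probe's negative mean lowers the naive sum. With normexp the severe array differed from naive by 0.86 and from light by 0.32, both under 2-fold. Without scaling its difference from moderate was 0.75. The rise of the moderate array had no settled sign, at −0.36 with quantile normalization and −0.26 with normexp.

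miR-365-3p, whose gene follows Mir193 in the RefSeq order, did not share the rise. It read 84.4 ± 1.32 (naive), 38.1 ± 1.44 (light), 131 ± 1.85 (moderate) and 41.1 ± 0.922 unscaled units (severe). After scaling it differed from naive by −0.24 ± 0.06 (light), 0.11 ± 0.03 (moderate) and −0.36 ± 0.04 (severe). The gap between miR-193-3p and miR-365-3p was 3.02 ± 0.10 for severe against naive, or 8.13-fold, and 2.42 ± 0.06 for severe against moderate. The first of these rests on a miR-193-3p naive sum just above the floor. By their second probes alone, severe against naive was 2.24 for miR-193-3p and −0.42 for miR-365-3p, a smaller gap. It was not recomputed with normexp, which put the miR-193-3p rise at 0.86.

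rno-miR-194-5p, the cluster partner of both seed members, had no signal above background anywhere. Its sums were −13.9 (naive), −11.5 (light), −11.3 (moderate) and −10.3 units (severe), and 0 of its 19 or 20 spots per array were well above background. Of the 395 miRNAs with 2 probes that were detected on no array, 51.4% (naive), 40.5% (light), 49.6% (moderate) and 56.7% (severe) read lower, so miR-194-5p sat in the middle of the undetected miRNAs. miR-192-5p was thus detected on all 4 arrays while its cluster partner was on none. Probes of different miRNAs bind with different strength, so this does not give a ratio of the 2 miRNAs. The opposite arms miR-192-3p, miR-194-3p and miR-193-5p, and miR-365-5p, were not detected on any array either.

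The remaining pairs of arrays gave the same picture of a severe array apart from the others. Severe against moderate had 2 members higher and 1 lower, beside 17.8% of 169 miRNAs in each direction. Severe against light also had 2 higher and 1 lower, beside 22.6% higher and 29.3% lower of 133. Moderate against light had 0 in either direction, beside 4.82% higher and 5.42% lower of 166. There miR-192-5p stood at 0.20 ± 0.02 and miR-215 at −0.38 ± 0.03. Without scaling, miR-215 was higher on the moderate array (1.04).

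**Figure D4:**
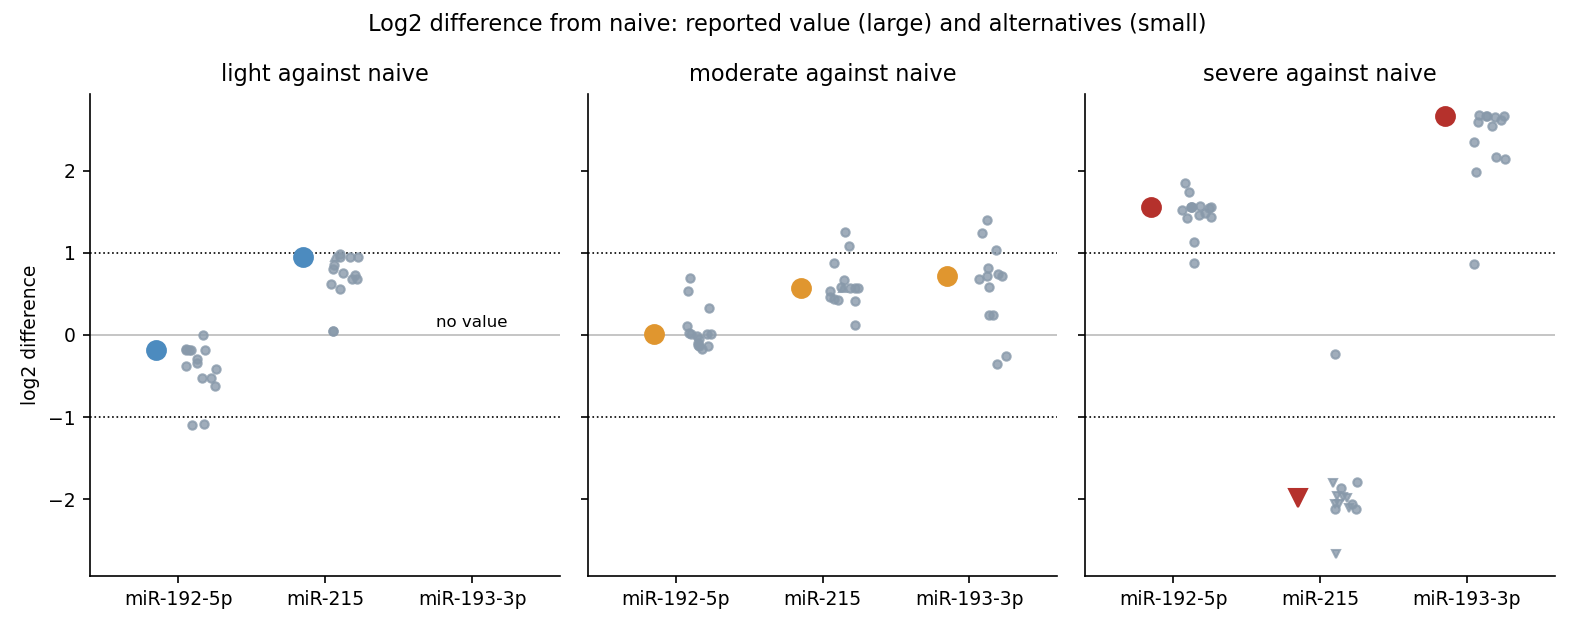
Log2 difference from naive of the 3 detected miRNAs on the light, moderate and severe arrays, with the reported value as a large symbol and each alternative processing as a small one. Triangles are bounds, pointing the way the true difference can lie, and dotted lines mark 2-fold. On the severe array all values of miR-192-5p and miR-193-3p lay above 0 and all of miR-215 below 0, between 0.87 and 1.85, 0.86 and 2.67, and −2.67 and −0.23.

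miR-122-5p, which makes up much of the miRNA in hepatocytes, was low against naive on the arrays of all 3 disease groups, and followed miR-192-5p in some pairs of arrays only. It read 1123 ± 11.2 (naive), 132 ± 2.03 (light), 964 ± 9.59 (moderate) and 417 ± 6.69 unscaled units (severe). The gap between miR-192-5p and miR-122-5p, set against naive, was 1.99 ± 0.03 (light), 0.75 ± 0.02 (moderate) and 2.30 ± 0.03 (severe). miR-122-5p itself stood at −2.18 (light), −0.74 (moderate) and −0.75 (severe). Its probes differed on the severe array, at −1.19 by the first, past 2-fold, and −0.58 by the second. Without scaling these were −1.87 and −1.26, so whether miR-122-5p passed 2-fold there depends on probe and scaling. Set against light, severe was higher for both miRNAs, by 1.74 for miR-192-5p and 1.43 for miR-122-5p, a gap of 0.31 ± 0.04. For moderate against light the gap was −1.24 ± 0.03, with miR-122-5p at 1.44, and for severe against moderate it was 1.55 ± 0.03. The first and second probe of miR-122-5p gave 1.69 and 1.34 for moderate against light. For severe against moderate they gave −0.39 and 0.13, so the probes differed by more than the spot errors. Of the 4 other liver-list miRNAs on the array (miR-122-5p, miR-122-3p, miR-101a-3p and miR-33-5p), 0 were at least 2-fold from naive on the moderate or severe array and 1, miR-122-5p, was lower on the light array. Over all miRNAs, 0.781% were lower on the light array, 5.42% were higher and 1.20% lower on the moderate array, and 24.1% were higher and 18.2% lower on the severe array. Without the 4 members, the liver list's median on the severe array was −0.33 over 2 measured, beside −0.11 over all 109 miRNAs. With the members included it was 0.82 over 4 measured. Fewer source cells and less RNA released per cell cannot be told apart in serum.

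Few of the other miRNAs known from epithelium were detected. Of the 9 other miRNAs of the gut and epithelium list, 8 were detected on no array, among them miR-200a-3p, miR-200b-3p, miR-200c-3p, miR-141-3p, miR-429 and miR-375-3p. The exception was miR-203a-3p, a miRNA of skin and other squamous epithelium, with 33.0 units on the moderate array.

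Of the 10 other p53-linked miRNAs on the array, 4 were measured on both the severe and the naive array and 0 were higher and 1 lower, beside 24.1% higher and 18.2% lower over all miRNAs. miR-34a-5p, the best known direct target of p53, read 55.6 (naive), 34.4 (light), 91.1 (moderate) and 35.4 unscaled units (severe). Its difference from naive was 0.21 (light), 0.19 (moderate) and 0.03 (severe), all within 2-fold. miR-107-3p and miR-16-5p stood at 0.32 and −0.71 on the severe array, and the lower one was miR-143-3p, a miRNA of smooth muscle, at −1.38. The median of the 4 was −0.34, beside −0.11 over all miRNAs. The other 6, among them miR-34b, miR-34c (both arms) and miR-145-5p, were detected on no array.

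**Figure D5:**
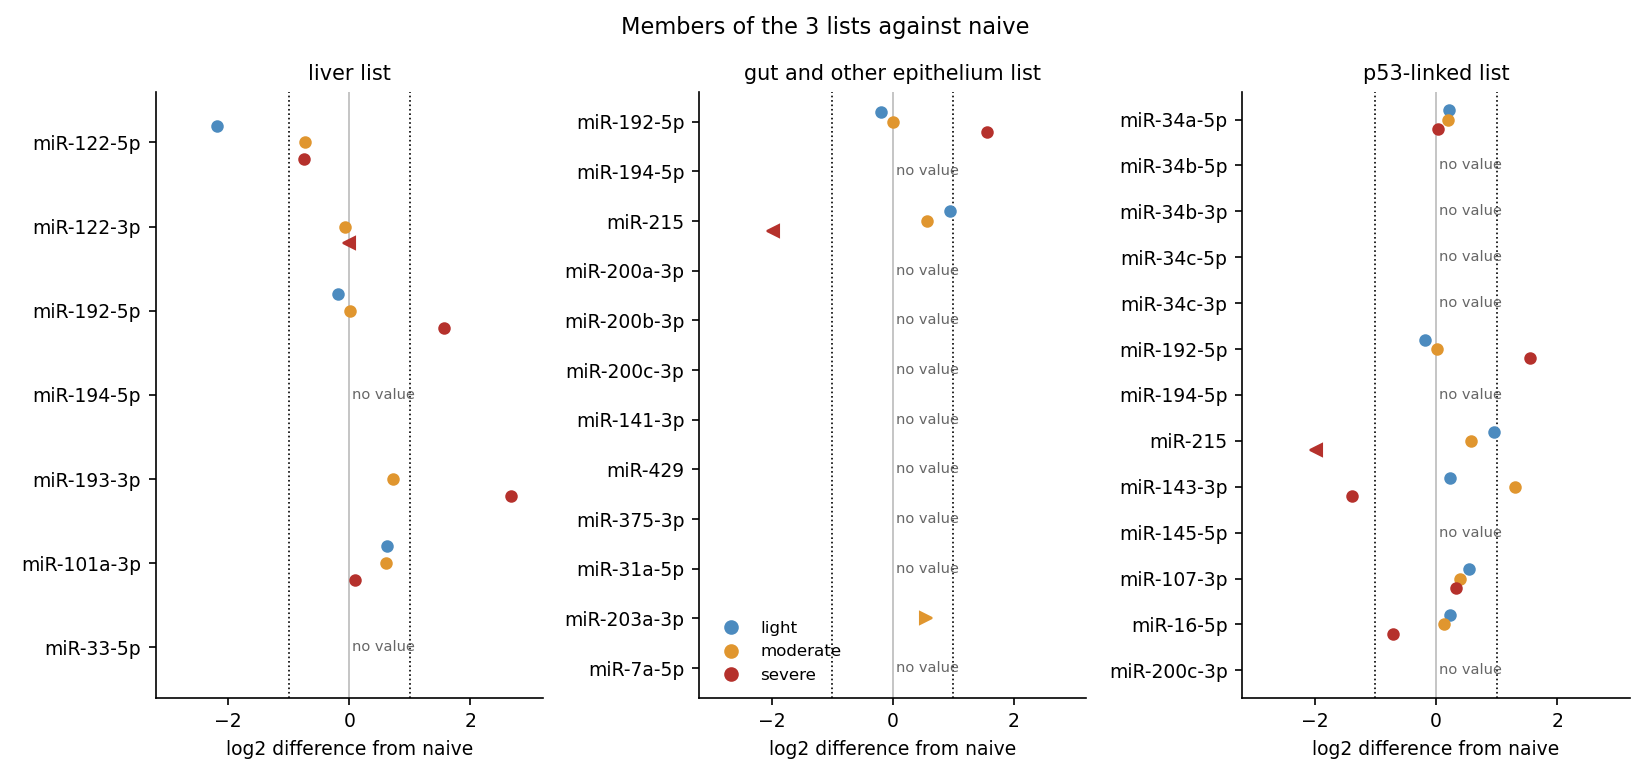
Log2 difference from naive of each miRNA of the liver, gut and epithelium, and p53-linked lists, for the light, moderate and severe arrays, with arrowheads for bounds and dotted lines at 2-fold. Outside the 4 members, miR-122-5p (light, −2.18) and miR-143-3p (severe, −1.38; moderate, 1.31) passed 2-fold, and most epithelial miRNAs gave no value.

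miR-192-5p was the one member measured on all 4 arrays, so its profile of differences from naive could be set beside those of the other 103 such miRNAs. The 3 closest were miR-328a-5p, miR-877 and miR-370-3p, with root mean square differences of 0.08, 0.21 and 0.23 on the log2 scale over the light, moderate and severe arrays. miR-328a-5p stood at −0.10 (light), −0.09 (moderate) and 1.53 (severe), beside −0.19 (light), 0.01 (moderate) and 1.56 (severe) for miR-192-5p. miR-370-3p stood at −0.15 (light) and 1.95 (severe). With 3 differences that share the naive array, such closeness is a description.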

How the data were processed

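Serum exosome RNA was extracted with an SBI exosome kit, per the labels. The labels' labelling protocol describes cRNA amplification, which differs from what a miRNA array implies. The deposited intensity values per spot were made by Feature Extraction 10.7.3.1 (Agilent; protocol miRNA_107_Sep09) on array design 046066, whose grid is annotated on rn4, per the file headers. The submitters' processing notes name version 9.1. They are background-subtracted and not scaled between arrays. The series' deposited value table holds total intensity for 102 miRNAs, 2 of the 4 members among them.

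Each array had 14380 miRNA spots, of which 386, 387, 386 and 525 outlier spots (naive, light, moderate and severe) were left out and 0 were saturated. Signals were averaged, summed, scaled and log2-transformed as the report states (Python 3.11.15, pandas 2.3.3), and the steps were tested on simulated data. That test judged measured changes of brighter miRNAs only, so it did not cover bounds or miRNAs that are dim on the naive array. The planned normexp alternative (limma 3.58.1) used median spot signals, since the files hold no mean, and that change was made after seeing the data. Members and lists were chosen with earlier results of these data known. Named miRNAs are the members, their other arms and cluster partners, the list members, those of shared seed, and the 3 closest profiles. List names miR-148a-3p, miR-885-5p, miR-15a-5p and miR-486 had no match on the array. The marker lists for hepatocytes, red cells, lymphocytes, myeloid cells, platelets and endothelium, muscle and epithelium served to describe the arrays. With 1 array per group, precision is limited by the number of arrays. RefSeq sequences are of another build than rn4, so no coordinates are given.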

Additional observations from a re-analysis of the deposited data

Results flagged for a closer look

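miR-192-5p differed from naive by 1.56 on the severe array and by −0.19 on the light array (log2), so the 2 disease arrays lay on opposite sides of naive. miR-215 differed from naive by −1.98 or less (a bound) on the severe array, and by 0.95 on the light and 0.57 on the moderate array. With 1 array per group these differences between disease groups were not tested. The low value of miR-192-5p on the light array was 0.00 with normexp. By its first probe alone it was −0.04, with scaled spots that overlapped those of naive, so the light side is not settled.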

How the results depend on the processing

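The counts of members past 2-fold (6 comparisons, each direction) were recomputed under 15 alternatives; 156 of 180 stayed within 1.5 times and 24 did not. No member value that was past 2-fold as reported changed sign. For moderate against light, miR-215 was −0.38 as reported, but 1.04 without scaling and 1.21 with spike-ins. Without scaling, or with labelling spike-ins, light against naive had 1 member lower in place of 0, moderate against naive 2 higher in place of 0, and moderate against light 3 higher in place of 0. Severe against moderate then had 0 and 1 higher in place of 2, and severe against naive had 1 higher without scaling. Moderate against naive had 1 higher with the 75th percentile over positive signals. Normexp, whose offset lowers folds by construction, left 1 member higher for severe against naive and against light, and 0 lower for severe against naive, moderate and light. With detection by spots well above background, severe had 1 higher against naive, moderate and light, and 0 lower against naive. By that rule miR-193-3p was not measured on the severe array, where 8 of 17 spots passed, all from its second probe. On the naive array miR-193-3p was measured (10 of 19 spots) and miR-215 was not (9 of 19). The series' deposited value table, which lacks miR-193-3p, gave 1 higher for severe in each of the 3. With the floor at the lowest summed signal, or no filter, moderate against light had 1 higher. No paired analysis was possible because each group had 1 array. The gap of miR-192-5p over miR-215 for severe against naive, recomputed under the alternatives after seeing the data, was 1.36 with normexp and 3.29 to 3.67 otherwise. Signals near the floor (miR-215 on the severe array, miR-193-3p on the naive and light arrays) limit those folds.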

Other observations

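The authors' deposited table lists miR-192-5p at 217.67 (naive), 100.05 (light), 317.12 (moderate) and 410.16 (severe), as total intensity with no scaling. For miR-215 the authors' deposited table lists 68.9 (naive), 69.8 (light), 147.92 (moderate) and 11.23 (severe). In that table miR-192-5p was highest and miR-215 lowest on the severe array. Its values lie within 0.0424% of the scanner software's totals for the same arrays, so they are no separate measurement.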
